A study of Mus musculus with 6 samples.

Results

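The genes described here encode 7 proteins of the cardiac sarcomere, namely Myh6, Myh7, Myl7, Myl4, Tnnt2, Actc1 and Ttn, out of 19342 gene names in a table of RNA read counts from mouse mesoderm progenitor cells. They were listed by name and selected on their read counts in these same libraries, with earlier results known, so their levels and ratios are given as a description. The table held 6 libraries of C57BL/6 cells, each from a different condition: untreated cells at 0 h, untreated cells at 96 h in culture, and cells given recombinant growth factors after 96 h. Those were rhBMP4 for 5 h (101 h in culture), rhBMP4 for 11 h (107 h), rhBMP4 with rhFGF8 for 5 h (101 h) and rhBMP4 with rhFGF4 for 11 h (107 h). Per the labels' protocols, the cultures shared serum-containing medium and a feeder layer of mitomycin C-treated wild type mouse embryonic fibroblasts, and whether feeder cells were removed before RNA extraction is not stated there. The labels name no embryo age, number of animals or pooling, and the series has no untreated culture at 101 h or 107 h.

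The sarcomere is the repeated contractile unit of striated muscle. Myosin heavy chains with their light chains form the thick filament, actin with troponin and tropomyosin forms the thin filament, and titin spans from the Z-disc to the M-line. In the mouse embryo these genes are switched on as cardiomyocytes differentiate from mesoderm. Before birth Myh6, Myl7 and Myl4 become mainly atrial and Myh7 is the main ventricular heavy chain. Actc1 and Tnnt2 are also used for a time in embryonic skeletal muscle.

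Each condition had 1 library, so no difference had a replicate check, no p-value was computed, and every interval covers counting error only. In a cell mixture, fewer cells of a type and less RNA per cell cannot be told apart. Library totals ranged from 179196459 to 272743104 counts. Levels are in CPM, counts scaled to a common library size, and 3 counts correspond to 0.0112 to 0.0180 CPM. Columns of the growth factor libraries were out of register with the gene names and were matched to them by an order-preserving alignment. It placed 6 of the 7 genes in all 6 libraries, while Ttn could not be placed securely in the library of BMP4 with FGF4 at 11 h, and no value is given for it there. Both libraries labelled 5 h stood close to the 0 h library. BMP4 at 5 h differed by at least 2-fold from 0 h in 93 genes and from 96 h in 833, and BMP4 with FGF8 at 5 h in 70 and 844 genes, although both are labelled 101 h in culture. The results below that use a 5 h library rest on these labels, and comparisons of the 5 h and 11 h libraries with 96 h also share the single 96 h library.

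Markers of the labelled cell type were present at 0 h. T, the Brachyury gene of posterior mesoderm, was at 84.5 CPM and Tbx6, a factor of presomitic mesoderm, at 41.3 CPM. At 96 h T was at 7.76 CPM and Tbx6 at 0.593 CPM. Of 14 listed tailbud and presomitic genes, 13 were analysed and all 13 were at least 2-fold lower at 96 h than at 0 h, against 2.47% of all genes.

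Upstream sequences of the 7 genes were examined because 6 of them moved together between libraries. RefSeq (GRCm38.p6) gave 9 start sites for them, with an alternative start each for Myh7 and Tnnt2, and 250 bases before each site were read 5′ to 3′ on the gene's strand. The paralogous heavy chain genes Myh6 and Myh7, which lie beside each other on chromosome 14, and Myl7 and Actc1, which each hold a CArG box, are shown. Capitals mark motif matches on either strand. The windows are chr14:54966608-54966857 for Myh6, chr14:54994627-54994876 for Myh7, chr11:5898783-5899032 for Myl7 and chr2:114052876-114053125 for Actc1, all on the minus strand of mm10 (GRCm38). Those of Myh6 and Actc1 lie inside the gene bounds given below, which are from GENCODE. They precede the RefSeq start but not the GENCODE start.
Myh6: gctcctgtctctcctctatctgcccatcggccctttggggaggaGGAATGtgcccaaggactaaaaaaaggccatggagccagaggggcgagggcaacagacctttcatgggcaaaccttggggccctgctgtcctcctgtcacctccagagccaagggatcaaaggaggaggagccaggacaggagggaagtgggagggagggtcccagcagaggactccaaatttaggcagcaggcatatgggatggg
Myh7: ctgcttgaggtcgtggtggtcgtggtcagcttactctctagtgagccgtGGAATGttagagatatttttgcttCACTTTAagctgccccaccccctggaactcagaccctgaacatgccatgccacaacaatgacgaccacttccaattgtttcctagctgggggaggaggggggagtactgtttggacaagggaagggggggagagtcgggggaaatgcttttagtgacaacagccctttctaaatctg
Myl7: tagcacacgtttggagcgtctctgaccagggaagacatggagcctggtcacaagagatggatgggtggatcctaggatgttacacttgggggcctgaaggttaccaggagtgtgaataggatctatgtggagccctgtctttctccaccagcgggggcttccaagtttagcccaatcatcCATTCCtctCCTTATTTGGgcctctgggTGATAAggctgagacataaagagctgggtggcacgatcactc
Actc1: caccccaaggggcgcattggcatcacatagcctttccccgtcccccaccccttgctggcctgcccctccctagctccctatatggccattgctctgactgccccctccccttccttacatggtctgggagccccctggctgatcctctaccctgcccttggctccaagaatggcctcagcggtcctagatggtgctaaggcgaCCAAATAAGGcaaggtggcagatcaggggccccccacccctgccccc

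A CArG box, the motif bound by serum response factor, lay from 61 to 52 bases before the RefSeq start of Myl7 and from 47 to 38 bases before that of Actc1. It was present in 1.47% of 32817 mouse promoter windows of the same length. The M-CAT motif CATTCC, bound by TEAD factors, was found in 4 of the 9 windows, against 12.6% of all windows. These were 1 window each of Myl7, Tnnt2 and, on the opposite strand, Myh6 and Myh7. A GATA motif, searched as AGATAA or TGATAA, was found in Myl7 and Tnnt2 (16.6% of all windows). An NKX2-5 motif searched as TNAAGTG was found in Myh7 (10.1% of all windows), and a MEF2 site in Ttn (2.92% of all windows). TATAAA matched none of the 9 windows (12.4% of all windows). Neither the Myl4 window nor the other window of Myh7 and of Tnnt2 held any of these motifs, so the matches of those genes depend on the start site used. Matches to different motifs did not overlap in these windows. They describe letters and not bound sites, and no binding data were used here.

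Of the 7 genes, the heavy chain Myh6 had the widest range of levels as a ratio of the highest to the lowest library. Myh6, the alpha heavy chain (ENSMUSG00000040752.16, chr14:54941921-54966927 in mm10), was at 0.334 CPM at 0 h, 26.3 at 96 h, 0.330 with BMP4 at 5 h, 0.176 with BMP4 and FGF8 at 5 h, 6.30 with BMP4 at 11 h and 14.7 with BMP4 and FGF4 at 11 h. These values correspond to 72, 7040, 72, 39, 1051 and 3127 counts. The 0 h library and both 5 h libraries were low, the 96 h library was highest, and both 11 h libraries were in between.

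Myh7, the beta heavy chain (chr14:54970684-54994626), was at 0.682 CPM at 0 h, 8.14 at 96 h, 0.422 with BMP4 at 5 h, 0.473 with BMP4 and FGF8 at 5 h, 2.15 with BMP4 at 11 h and 6.98 with BMP4 and FGF4 at 11 h. The order of the libraries at the upper end was that of Myh6, but the library of BMP4 with FGF4 came nearer to the 96 h level. Myh6 and Myh7 share sequence: 22.6% of the 50-base stretches and 11.4% of the 100-base stretches of the Myh6 transcript also occur in Myh7. Neither the read length nor the treatment of reads that match both is stated in the labels, so the split of counts between the pair is uncertain.

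Of the atrial light chains, Myl7 moved widely and Myl4 little. Myl7, a regulatory light chain (chr11:5896637-5898782), was at 0.710 CPM at 0 h, 14.1 at 96 h, 0.633 with BMP4 at 5 h, 0.586 with BMP4 and FGF8 at 5 h, 5.10 with BMP4 at 11 h and 8.33 with BMP4 and FGF4 at 11 h. Myl4, an essential light chain (chr11:104550663-104595753), was at 12.4 CPM at 0 h, 22.1 at 96 h, 10.8 and 11.1 in the 5 h libraries without and with FGF8, 16.3 with BMP4 at 11 h and 19.5 with BMP4 and FGF4 at 11 h. Myl4 was thus well above the counting floor in every library, and the ratio of its highest to its lowest library was the smallest of the 7 genes.

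On the thin filament, cardiac troponin T and cardiac alpha-actin also peaked at 96 h. Tnnt2 (chr1:135836354-135852260) was at 0.617 CPM at 0 h, 10.3 at 96 h, 0.495 with BMP4 at 5 h, 0.550 with BMP4 and FGF8 at 5 h, 3.86 with BMP4 at 11 h and 7.02 with BMP4 and FGF4 at 11 h. Actc1 (chr2:114047282-114053548) was at 6.98 CPM at 0 h, 46.7 at 96 h, 9.17 and 8.76 in the 5 h libraries without and with FGF8, 25.0 with BMP4 at 11 h and 25.7 with BMP4 and FGF4 at 11 h. Both 11 h libraries were close to each other for Actc1, unlike for Myh6 and Myh7.

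Titin, the giant elastic protein of the sarcomere (Ttn, chr2:76703980-76982547), was at 0.761 CPM at 0 h, 5.26 at 96 h, 0.509 with BMP4 at 5 h, 0.757 with BMP4 and FGF8 at 5 h and 2.84 with BMP4 at 11 h. Per kilobase of transcript, the levels at 96 h fell in the order Actc1 (31.7 CPM per kb), Myl7 (23.9), Myl4 (23.4), Tnnt2 (8.54), Myh6 (4.30), Myh7 (1.31) and Ttn (0.0492). At 0 h the order per kilobase was Myl4 (13.2), Actc1 (4.74), Myl7 (1.20), Tnnt2 (0.514), Myh7 (0.109), Myh6 (0.0546) and Ttn (0.00712). Myl4 led at 0 h and came close behind Myl7 at 96 h, and Myh6 and Myh7 exchanged places. Lengths were those of 1 annotated transcript per gene.

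**Figure D1:**
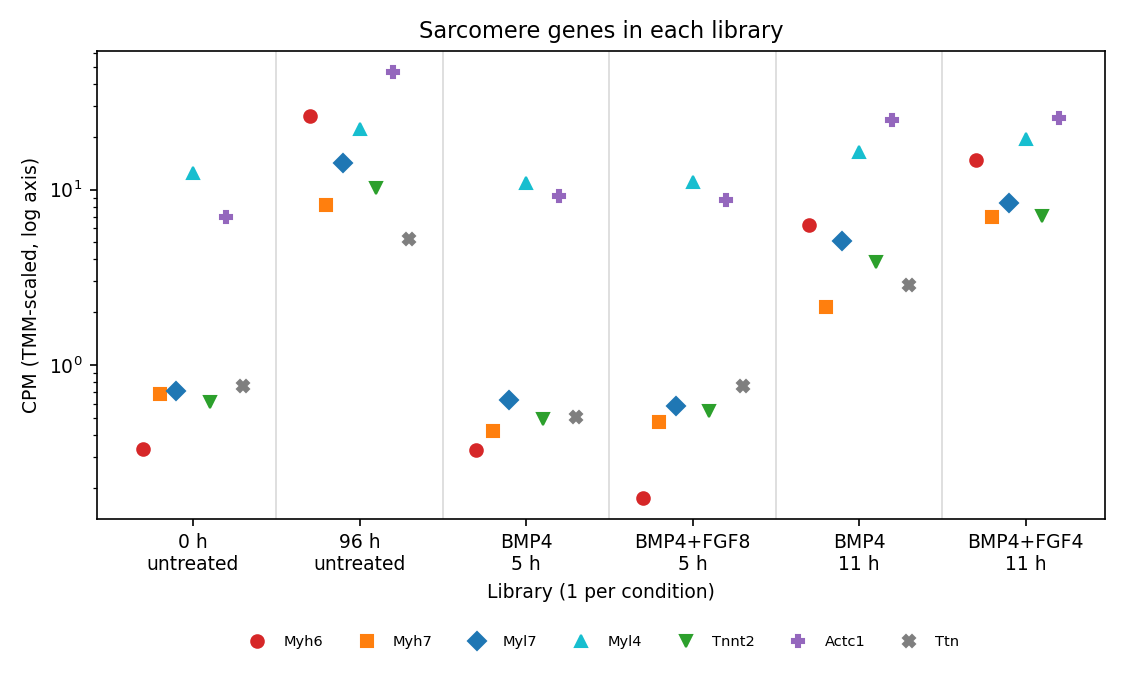
CPM of each sarcomere gene (log axis, 1 point per gene) in the 6 libraries, 1 library per condition. The 0 h library and both 5 h libraries hold 5 genes below 1 CPM, while at 96 h and 11 h every gene shown is above 2 CPM, and Ttn has no point with BMP4 and FGF4.

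Between 0 h and 96 h without growth factors, 6 of the 7 genes rose at least 2-fold and none fell, against 4.08% higher and 2.47% lower of the 14352 genes analysed. Here and below a gene was counted as changed where its log2 ratio, after adding 0.5 CPM to both libraries, was at least 2-fold and the exact 95% counting interval of the plain ratio excluded 1. Myh6 was 78.7-fold higher at 96 h (interval 62.4 to 101), Myl7 19.9-fold (16.9 to 23.5), Tnnt2 16.6-fold (14.0 to 19.9) and Myh7 11.9-fold (10.1 to 14.2). Ttn was 6.91-fold higher (5.87 to 8.17) and Actc1 6.68-fold (6.34 to 7.06). Myl4 differed by 1.78-fold and did not reach 2-fold. On the log2 scale with 0.5 CPM added the median of the 7 genes was 2.87, and that of all genes was -0.003.

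With BMP4 at 5 h, 6 of the 7 genes were at least 2-fold lower than at 96 h, against 3.48% of all genes lower and 2.4% higher. With BMP4 and FGF8 at 5 h, 6 were also lower, against 3.32% of all genes lower and 2.63% higher. Log2 ratios to 96 h ran from -5.01 for Myh6 to -0.996 for Myl4 with BMP4, and from -5.31 for Myh6 to -0.96 for Myl4 with FGF8 added. Guided by the 96 h column alone, the placement left 4 genes for BMP4 at 5 h, of which 3 were lower. Against 0 h, none of the 7 was counted as changed with BMP4 at 5 h, with 0.501% of all genes higher and 0.155% lower. Their log2 ratios to 0 h ran from -0.36 for Myh7 to 0.37 for Actc1. Myh6, at 0.334 CPM at 0 h, could not have been counted as lower once 0.5 CPM was added. Intervals of the plain ratio excluded 1 for Myh7 (0.472 to 0.809), Ttn (0.521 to 0.857), Myl4 (0.823 to 0.920) and Actc1 (1.23 to 1.40). Those of Myh6, Myl7 and Tnnt2 included 1.

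With FGF8 added to BMP4 for 5 h, none of the 7 genes was counted as changed either, against 0.226% of all genes higher and 0.0708% lower. Myh6 was 0.532-fold the BMP4 level, with an interval of 0.351 to 0.797 that rests on 39 and 72 counts. Ttn was 1.49-fold (1.16 to 1.91). The intervals of Myh7, Myl7, Tnnt2, Myl4 and Actc1 included 1. At these low levels the 0.5 CPM added before taking logarithms compresses the log2 ratios. Myh6, Myh7 and Tnnt2 were below 0.5 CPM with BMP4 alone. They could not have been counted as lower with FGF8 added, even with no counts left.

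With BMP4 at 11 h, 4 of the 7 genes were at least 2-fold lower than in untreated cells at 96 h, against 0.36% of all genes lower and 2.74% higher. Myh6 was at 0.240 of the 96 h level (interval 0.225 to 0.256), Myh7 at 0.264 (0.236 to 0.296), Myl7 at 0.361 (0.335 to 0.389) and Tnnt2 at 0.377 (0.345 to 0.410). Actc1 was at 0.536, Ttn at 0.541 and Myl4 at 0.736 of the 96 h level, which is short of 2-fold. All 7 log2 ratios were below 0, with a median of -1.30, against -0.02 for all genes. With placement guided by the 0 h or the 96 h column alone, Myh6 and Myh7 were not placed in this library, and 2 of the 5 remaining genes were lower. Relative to BMP4 at 5 h, 6 of the 7 were higher at 11 h (2.77% of all genes higher, 0.384% lower), from 2.73-fold for Actc1 to 19.1-fold for Myh6, and Myl4 differed by 1.502-fold. That count was 3 of 4 placed genes with the 96 h column alone.

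With BMP4 and FGF4 at 11 h, none of the 6 placed genes differed by 2-fold from 96 h, where 0.148% of all genes were lower and 1.55% higher. Their log2 ratios were all below 0, from -0.85 for Actc1 to -0.18 for Myl4, with Myh6 at -0.82 and Myh7 at -0.21.

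Compared with BMP4 alone at 11 h, BMP4 with FGF4 had 2 of 6 genes higher, against 1.4% of all genes higher and 0.738% lower. These were the heavy chains, Myh7 at 3.24-fold (interval 2.89 to 3.65) and Myh6 at 2.33-fold (2.18 to 2.51). Tnnt2 was 1.82-fold (1.66 to 1.999), Myl7 1.64-fold (1.51 to 1.78), Myl4 1.20-fold (1.14 to 1.26) and Actc1 1.03-fold (0.985 to 1.07). The difference between the heavy chains and Actc1 was larger than counting error, but with 1 library per arm its spread between cultures was not measured. Myh6 and Myh7 were placed in the BMP4 library at 11 h only when both untreated columns guided the alignment. Guided by the 0 h or the 96 h column alone, neither gene had a ratio between the 11 h libraries.

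**Figure D2:**
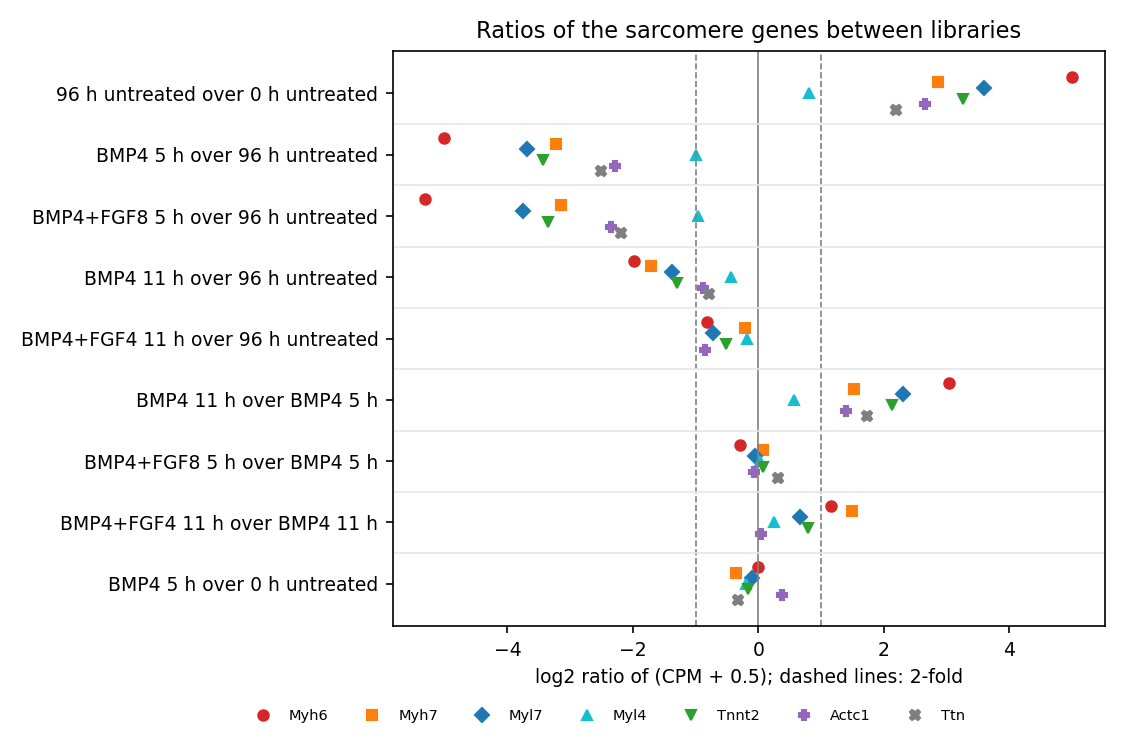
Log2 ratios of the sarcomere genes, with 0.5 CPM added to both libraries, in 9 comparisons between single libraries; dashed lines mark 2-fold. Myh6 spans from -5.31 to 5.01, Myl4 stays within the dashed lines, and in BMP4 with FGF4 over BMP4 at 11 h the heavy chains lie past the right-hand line at 1.16 and 1.495.

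Shares within pairs of related isoforms do not depend on library scaling. Myh6 made up 32.9% of the Myh6 and Myh7 counts at 0 h (exact 95% interval 26.7 to 39.5) and 76.4% at 96 h (75.5 to 77.2). It was 43.9% (36.2 to 51.9) with BMP4 at 5 h, 27.1% (20.02 to 35.1) with BMP4 and FGF8 at 5 h, 74.5% (72.2 to 76.8) with BMP4 at 11 h and 67.8% (66.5 to 69.2) with BMP4 and FGF4 at 11 h. Among the 3 libraries with high levels, the intervals of 96 h and BMP4 at 11 h overlapped, and that of BMP4 with FGF4 lay below both. Among the 3 libraries with low levels, BMP4 at 5 h lay above BMP4 with FGF8, and both overlapped 0 h. With all counts halved, for the case of a count per read, these 5 h intervals overlapped (33.0 to 55.3 and 17.9 to 39.6). Halved, the interval of BMP4 with FGF4 (65.9 to 69.7) still lay below that of BMP4 at 11 h (71.1 to 77.7). These shares need both heavy chains placed. Guided by the 96 h column alone, the share could not be given for BMP4 at 5 h or for either 11 h library, and guided by the 0 h column alone it could not be given for BMP4 at 11 h.

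For the regulatory light chains, Myl7 made up 58.9% of the Myl7 and Myl2 counts at 0 h, 59.7% and 58.0% in the 5 h libraries without and with FGF8, 89.2% at 96 h, 88.5% with BMP4 at 11 h and 92.1% with BMP4 and FGF4 at 11 h. Myl2, the ventricular counterpart, was itself at 0.496 CPM at 0 h and 1.71 at 96 h. For the essential light chains, Myl4 made up 98.3% of the Myl4 and Myl3 counts at 0 h and 90.8% at 96 h, and between 95.8% and 98.2% in the growth factor libraries. Tnni1, the troponin I of the embryonic heart and slow muscle, made up 89.0% of the Tnni1 and Tnni3 counts at 0 h and 89.5% at 96 h. In the growth factor libraries it lay between 88.7% and 92.5%, so the share of Tnni1 varied less than those of Myh6 and Myl7.

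**Figure D3:**
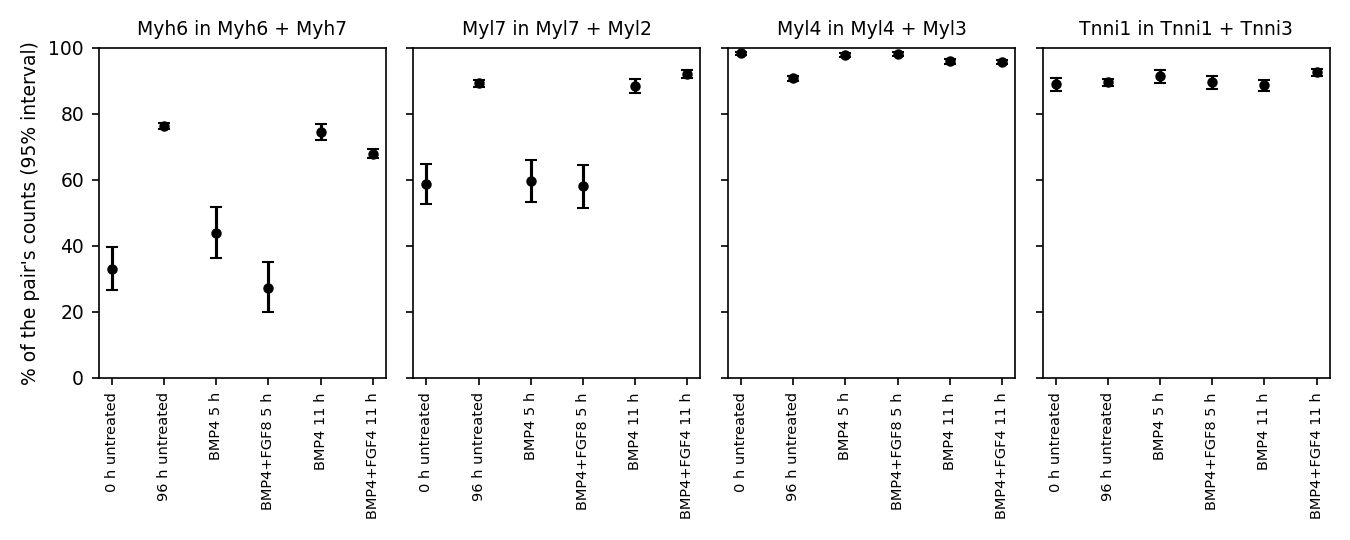
Share of the counts of 4 isoform pairs taken by the first-named gene (%, with exact 95% counting intervals) in 6 libraries. The share of Myh6 ranges from 27.1% to 76.4% and that of Myl7 from 58.0% to 92.1%, while Myl4 and Tnni1 stay above 88%.

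Other sarcomere genes followed the same direction at 96 h. Of 36 listed genes, 25 were analysed in that comparison, and 19 rose while none fell, against 4.08% of all genes higher and 2.47% lower. Mybpc3, cardiac myosin-binding protein C of the thick filament, was at 0.0603 CPM at 0 h, 5.86 at 96 h, 0.0780 and 0.0451 in the 5 h libraries without and with FGF8, 1.52 with BMP4 at 11 h and 4.54 with BMP4 and FGF4. Unc45b, a chaperone of muscle myosin, was at 0.223 CPM at 0 h, 3.71 at 96 h, 1.68 with BMP4 at 11 h and 5.05 with BMP4 and FGF4. Tnni1 went from 4.18 to 14.2 CPM and Smyd1, a muscle methyltransferase needed for sarcomere assembly, from 1.04 to 5.25 CPM. The most abundant genes of this list were not counted as changed: Tpm1 was at 253 and 164 CPM, Pdlim5 at 39.3 and 24.2, Des at 15.5 and 14.9 and Tmod1 at 11.9 and 19.0 CPM at 0 h and 96 h.

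With BMP4 at 11 h, 3 of 25 of these genes were lower than at 96 h and none higher, against 0.36% of all genes lower and 2.74% higher. They were Mybpc3, with a log2 ratio of -1.65, the troponin C gene Tnnc1 at -1.49 and Myl3 at -1.22. Between BMP4 with FGF4 and BMP4 alone at 11 h, 3 of 24 were higher (1.4% of all genes): Cryab, a small heat shock protein, at a log2 ratio of 1.82, Unc45b at 1.35 and Mybpc3 at 1.32. Tnnc1, Myl3 and Cryab were named after their values were seen.

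Genes of calcium handling and membrane excitability were mixed. Of 25 listed, 12 were analysed, and 7 rose and 1 fell between 0 h and 96 h, against 4.08% of all genes higher and 2.47% lower. Popdc2, a membrane protein of striated muscle, rose from 1.02 to 11.7 CPM and was at 5.01 with BMP4 at 11 h and 10.7 with BMP4 and FGF4. Gja5, a connexin of atrial and conduction tissue and of arterial endothelium, rose from 0.102 to 3.26 CPM and was at 1.16 and 4.62 CPM in those 11 h libraries. Slc8a1, the sodium-calcium exchanger, rose from 5.75 to 12.4 CPM. Gja1, a widely expressed connexin, fell from 211 to 101 CPM, and Kcnq1, a potassium channel, was at 8.48 and 4.58 CPM. Atp2a2, the calcium pump of the sarcoplasmic and endoplasmic reticulum, was at 213 and 208 CPM and Cacna1c, a calcium channel, at 11.1 and 10.1 CPM. With BMP4 at 11 h, Kcnq1 was higher than at 96 h (log2 ratio 1.11), and Gja5 (-1.18) and Popdc2 (-1.15) were lower.

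Of 22 cardiac transcription factors, 21 were analysed, and 9 rose and 2 fell between 0 h and 96 h, against 4.08% of all genes higher and 2.47% lower. Hand1 rose from 1.58 to 32.0 CPM, Gata4 from 0.482 to 11.05, Tbx20 from 1.14 to 14.9 and Tbx5 from 2.31 to 11.2 CPM. With BMP4 at 11 h, Gata4 (log2 ratio -1.43) and Tbx20 (-1.16) were lower than at 96 h. Both were higher with BMP4 and FGF4 than with BMP4 alone, at log2 ratios of 1.82 and 1.36. Srf, which binds the CArG box, was at 44.3 CPM at 0 h and 42.9 at 96 h, and Mef2a, which binds MEF2 sites, at 21.8 and 26.0 CPM. Mef2c, of the same family and named after its values were seen, rose from 3.13 CPM at 0 h to 8.33 at 96 h. It was at 5.12 with BMP4 at 11 h and 10.2 with BMP4 and FGF4. The forkhead genes Foxc1 (40.3 and 23.0 CPM) and Foxc2 (35.3 and 17.7 CPM) did not reach 2-fold. Nkx2-5, an early cardiac factor, stayed under 1 CPM in every library, at 0.0835 CPM at 0 h, 0.702 at 96 h, 0.492 with BMP4 at 11 h and 0.598 with BMP4 and FGF4, and is named here after its values were seen.

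The 7 genes were also set against other muscle types. Of 25 skeletal muscle genes, 10 were analysed, and 2 rose at 96 h (4.08% of all genes): Myf5, a myogenic factor, from 0.668 to 4.23 CPM, and Pax7, a factor of muscle progenitors, from 1.11 to 3.19 CPM. Acta1, skeletal alpha-actin, was at 0.923 and 2.22 CPM and Actn3, a fast-fibre actinin, at 2.84 and 1.42 CPM. The summed level of the 19 skeletal genes placed in all libraries was 12.9 CPM at 0 h, 23.1 at 96 h and between 13.3 and 23.0 in the growth factor libraries. The part of skeletal muscle cells in the levels of the 7 genes was not tested.

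Smooth muscle genes behaved differently from the 7 genes with BMP4 at 5 h. Of 10 analysed, 5 rose between 0 h and 96 h (4.08% of all genes). From 0 h to BMP4 at 5 h, 5 rose by at least 2-fold (0.501% of all genes), and none of the 7 sarcomere genes did. The rise was not particular to smooth muscle genes. In the same comparison 4 of 10 fibroblast genes rose and none fell, against 0.155% of all genes lower. Acta2, smooth muscle alpha-actin, was at 12.5 CPM at 0 h, 30.4 with BMP4 at 5 h and 63.4 at 96 h, and Tagln, a smooth muscle actin-binding protein, at 7.62, 26.8 and 26.3 CPM. With BMP4 and FGF8 at 5 h, Acta2 was at 22.2 and Tagln at 16.8 CPM. The summed level of the 10 genes was 68.2 CPM at 0 h, 116.8 with BMP4 at 5 h and 91.1 with BMP4 and FGF8 at 5 h. Of 13 non-muscle actin, myosin and tropomyosin genes, none was counted as changed in any of the 9 comparisons. Over all genes, from 0.0708% to 4.08% were changed in a given direction. Actg1, cytoplasmic gamma-actin, was the most abundant of them on average, and Actb, Myh10 and Tpm4 followed.

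Markers of endothelial, fibroblast and red blood cells were also higher at 96 h than at 0 h. Over all genes 4.08% were higher and 2.47% lower in that comparison. All 12 endothelial genes rose at 96 h, with a summed level of 18.0 CPM at 0 h, 142.8 at 96 h, 17.4 and 18.7 in the 5 h libraries without and with FGF8, 73.6 with BMP4 at 11 h and 192.1 with BMP4 and FGF4. Of the 10 fibroblast genes 6 rose at 96 h. The summed level of all 10 was 714 CPM at 0 h, 1146 at 96 h and 763 and 711 at 5 h. It was 947 with BMP4 at 11 h and 1815 with BMP4 and FGF4. Fn1 made up most of the sum at 0 h, at 530 CPM, and was at 308 CPM at 96 h, short of a 2-fold change. Fbln2 and Thy1 were also lower at 96 h, short of 2-fold. The sums hide changes in less abundant genes. From 0 h to BMP4 at 5 h, 4 of the 10 rose and none fell, with Postn going from 2.63 to 20.3 CPM. The 7 red blood cell genes placed in all libraries summed to 8.68 CPM at 0 h, 991 at 96 h, 12.7 and 62.0 at 5 h, 964 with BMP4 at 11 h and 781 with BMP4 and FGF4. All 8 red blood cell genes rose at 96 h, and none of the 8 was at least 2-fold lower with BMP4 at 11 h than at 96 h (0.36% of all genes were lower). None of these marker genes was at 0 counts in any library in which it was placed. Their part in the result was not tested.

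Between BMP4 with FGF4 and BMP4 alone at 11 h, 8 of 12 endothelial and 7 of 10 fibroblast genes were higher, and none of the 8 red blood cell genes was. Over all genes 1.4% were higher and 0.738% lower. Kdr, an endothelial receptor, was at 12.7 CPM with BMP4 and 39.4 with BMP4 and FGF4, and Col1a1, a fibroblast collagen, at 107 and 358 CPM. Of 13 tailbud and presomitic genes 12 were lower with FGF4 added, T among them at 45.0 and 11.1 CPM. Of the sarcomere genes Myh6 and Myh7 were higher in this pair of libraries, and the part of endothelial and fibroblast cells in that was not tested.

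To set the 11 h libraries on a common scale, the level of each gene that changed between 0 h and 96 h, and reached 1 CPM in either, was expressed as a percentage of the way from its 0 h CPM (0%) to its 96 h CPM (100%). The alignment treats values between both untreated libraries alike and charges for values outside them, so extremes are the least complete. With BMP4 at 11 h, the 6 sarcomere genes had a median of 33.2% (19.7% to 46.3%). The medians were 41.8% for 19 other sarcomere genes, 42.3% for 10 cardiac transcription factors, 45.2% for 12 endothelial genes, 50.5% for 6 fibroblast genes, 69.3% for 8 red blood cell genes and 65.4% for 13 tailbud genes. With BMP4 and FGF4 at 11 h, 5 sarcomere genes had a median of 56.9% (47.1% to 84.4%), against 79.2% for 18 other sarcomere genes, 92.1% for the transcription factors, 140.3% for endothelial, 156.9% for fibroblast, 70.2% for red blood cell and 95.8% for tailbud genes. The 8 calcium, membrane and metabolism genes had medians of 42.25% with BMP4 and 107.1% with BMP4 and FGF4. Of the 8 lists plotted, the sarcomere genes had the lowest median in both libraries. With BMP4 alone, the lists of epicardial and of endoderm genes, with 2 genes each, had lower medians of 28.95% and 17.03%. The range of the sarcomere genes was apart from that of the red blood cell genes with BMP4, and from that of the fibroblast genes with FGF4. With FGF4 it all but met that of the tailbud genes, at 84.41% for Myh7 and 84.75% for Dll1, and Ttn has no value there. It overlapped the ranges of the other plotted lists. In the 5 h libraries the sarcomere median was -0.916% without and -0.652% with FGF8.

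**Figure D4:**
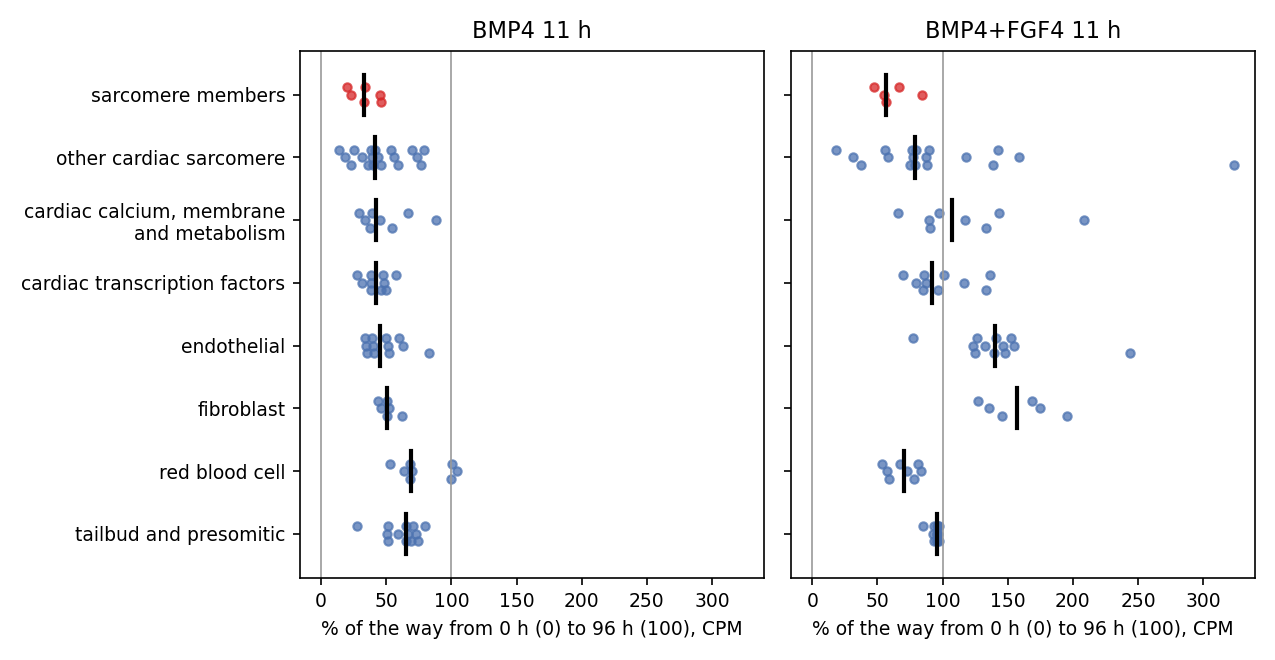
Level of each gene that changed between 0 h and 96 h and reached 1 CPM in either, as % of the way from its 0 h to its 96 h CPM, in BMP4 at 11 h (left) and BMP4 with FGF4 at 11 h (right); points are genes, black bars are list medians. The sarcomere genes (red) have medians of 33.2% and 56.9%. The medians of the endothelial, fibroblast and cardiac calcium, membrane and metabolism lists pass 100% with FGF4.

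The genes with the most similar pattern were found by the root mean square distance between centred log2 CPM profiles (0.5 CPM added) over the 6 libraries. The profile was the mean of the 6 sarcomere genes placed in all libraries, and 13277 other genes were ranked. Among the 10 nearest were Tgm2 (distance 0.175), Popdc2 (0.178), Hlx (0.185), Mab21l2 (0.194), Gata6 (0.198), Uba7 (0.199), Slc30a10 (0.220), Lyl1 (0.237) and Fap (0.241). Pearson's r with the profile lay between 0.986 and 0.995 over 6 libraries and is a description, since the libraries are single and share the contrast that chose the genes. Gata6, a zinc finger factor of the heart and endoderm, went from 3.04 CPM at 0 h to 22.7 at 96 h and was at 12.9 and 22.0 CPM in the 11 h libraries without and with FGF4. Fap, a protease of fibroblasts, and Lyl1, a blood and endothelial factor, are also among the 10. Of the sarcomere genes themselves, Tnnt2 lay nearest to the shared profile (distance 0.136), and Myh6 (0.873) and Myl4 (0.918) lay farthest. Myh6 moved more and Myl4 less than the mean.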

How the data were processed

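RNA was measured in 6 libraries, 1 per condition. The deposited table holds raw counts per gene made by the authors. Per the submitters' processing notes, the tools were HTSeq, cutadapt, DESeq and STAR 2.4.0e on mm10, with no roles. Per the labels' protocols, the kit was strand-specific and took total RNA. The labels do not say if each pair gave 1 count or a count per read. In the second case the intervals are too narrow.

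The 0 h and 96 h columns hold as many values as there are names; the other 4 columns hold 19415 to 19826 values against 19342 names, and r of log2 counts read row by row was 0.048 to 0.136. Names were sorted without regard to case, and each column was aligned to them in order (forward-backward, t-distributed errors with 2 degrees of freedom, scale 0.25 log2, flat between both untreated libraries, band of 900 rows). Low rows showed that rows with 10 or fewer counts summed with a partner library had been left out of the columns, and this was used. The partner was 96 h, and for BMP4 with FGF4 it was BMP4 at 11 h. A gene was placed where its posterior was at least 0.95, no name within 5 positions lacked a row against that rule, and columns of the same hours paired alike. Between 93.25% and 95.41% of names were placed, holding 99.3% to 99.5% of counts. Since rows are matched on level, the placement is no independent check of the names.

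Counts of placed genes were scaled with edgeR 4.0.16 TMM factors (R 4.3.3) to CPM; no count model was fitted, since no condition had replicates. A comparison used genes placed in both of its libraries and reaching 1 CPM in any library. Counting intervals are Clopper-Pearson, 95%. Alternatives were DESeq2 1.42.0 size factors, total counts, 0.1 or 2 CPM added, no filter or 5 CPM, and other placements. For the isoform shares, counts were also halved. Locations and lengths are from GENCODE M21 on mm10. The members, lists and the rule for named genes (up to 4 per list by mean CPM, and in the cardiac lists 4 by ratio of BMP4 at 11 h to 96 h, plus the 10 nearest profiles, of which 1 is not reported here) were chosen with earlier results of these data known.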

Additional observations from a re-analysis of the deposited data

How the results depend on the processing

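No paired analysis was possible because each condition has 1 library. No sarcomere gene counted as changed reversed its direction under any alternative run. Myh6 in BMP4 at 5 h over 0 h, which was not counted as changed, went from a log2 ratio of -0.006 to 0.001 with total counts. Of the alternatives run, only other placements moved a count of changed sarcomere genes by over 1.5 times, and where a gene was placed its count was the same. Guided by the 96 h column alone, fewer genes were placed, and 3 of 4 placed genes were lower with BMP4 at 5 h than at 96 h (6 of 7 in the report), 2 of 5 with BMP4 at 11 h (4 of 7), 3 of 4 were higher at 11 h than at 5 h (6 of 7) and 0 of 4 differed between BMP4 with FGF4 and BMP4 at 11 h (2 of 6). Guided by the 0 h column alone, 2 of 5 were lower with BMP4 at 11 h than at 96 h and 0 of 3 differed between the 11 h libraries. In each case the missing genes include Myh6 and Myh7. Myl4 passed 2-fold in BMP4 at 5 h over 96 h with 0.1 CPM added (log2 ratio -1.02). With 2 CPM added, Myh7 (0.78) and Ttn (0.95) no longer passed in BMP4 at 11 h over 5 h. Scaling by total counts shifts plain log2 ratios of BMP4 with FGF4 over BMP4 at 11 h by 0.15. With 0.5 CPM added, Myh6 was then at 1.30 and Actc1 at 0.18, and no call of these genes changed.

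Counts over all genes fell with 2 CPM added and with a filter of 5 CPM. They were 940, 516 and 581 (main, 2 CPM added, 5 CPM filter) for 96 h over 0 h, 833, 469 and 515 for BMP4 at 5 h, 844, 460 and 517 for BMP4 with FGF8, 440, 209 and 256 for BMP4 at 11 h and 241, 110 and 124 for BMP4 with FGF4, all over 96 h. They were 444, 177 and 250 for BMP4 at 11 h over 5 h, 42, 18 and 23 for FGF8 added, 301, 137 and 200 for FGF4 added and 93, 33 and 45 for BMP4 at 5 h over 0 h. With 0.1 CPM added, BMP4 with FGF4 over 96 h gave 414. In the 3 libraries with low levels Myh6 rests on 39 to 72 counts, so its share there is the least precise value.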
